A study of Mus musculus with 6 samples.

Results

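The receptor chains through which T cells sense interleukin 2, interleukin 7 and related cytokines were followed by name in the array data: Il2ra, Il2rb, Il2rg, Il7r, Il4ra, Il15ra and Il21r. Of these 7 genes, 6 had at least 1 probe set (a group of array probes for a transcript) annotated to that gene alone, with 12 probe sets in all, out of 12394 genes measured. No probe set was annotated to Il2rg in the annotation used, so the Il2rg level was not analysed here. Where a gene had several probe sets, the brightest on average represents the gene and the others are given beside it.

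Treg cells, the CD4 T cells that restrain immune responses, were taken from mouse spleen and lymph nodes by sorting CD4+CD25+YFP+ cells. The Gata3F/FFoxp3YFP-Cre mice gave 3 arrays, called Gata3-deficient here, and the Gata3F/+Foxp3YFP-Cre mice gave 3 arrays, called Gata3-sufficient here and titled WT. Both groups carried Foxp3YFP-Cre, which places a YFP-tagged Cre recombinase under the Foxp3 gene, so the deletion was directed to Foxp3-expressing cells and the control animals kept 1 intact Gata3 allele. Sources used here do not give the age of the mice. The sort selected cells for CD25, the protein encoded by Il2ra, in both groups, so the gate bears on the Il2ra level of both.

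These receptors work as combinations of chains. The common gamma chain, encoded by Il2rg, pairs with the interleukin 7 receptor alpha chain, the interleukin 4 receptor alpha chain or the interleukin 21 receptor, and with the shared beta chain Il2rb to bind interleukin 2 or interleukin 15. The alpha chains Il2ra and Il15ra add affinity for interleukin 2 and interleukin 15 and do little signalling of their own. Signals run through Jak1 and Jak3 to STAT transcription factors, of which STAT5 carries most of the interleukin 2 and interleukin 7 response. Treg cells are known for high CD25 and for low interleukin 7 receptor alpha (CD127) on the cell surface, the reverse of most resting conventional T cells.

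The values are log2 intensities, with array medians between 6.06 and 6.11, and 274 of 12394 genes (2.21%) differed between the groups at an adjusted p under 0.05 by limma. Values of single arrays are given in the order of replicates 1, 2 and 3 throughout. Means over the arrays of 7 T cell markers ran from 8.13 for Cd4 to 12.84 for Cd3d. The single Foxp3 probe set was dim, at 3.92, so the arrays did not check the sort by Foxp3. Of 11 measured Treg markers, Il2ra among them, 10 were higher and 1 lower in the deficient arrays, where 6570 of all 12394 genes were higher. Past the threshold were 18.2% of these markers, against 2.21% of all genes. The markers that passed were Tnfrsf4 (log2 change 0.32) and Nrp1 (-0.77 ± 0.07, SE, adjusted p = 0.00152 by limma). The other Nrp1 probe sets differed by -0.75 and -0.83, and Nrp1 passed with any single array left out. What this means for the sorted cells was not tested. The single Gata3 probe set read 9.57, 9.41 and 9.47 in the sufficient and 9.83, 9.98 and 9.71 in the deficient arrays, which is higher where the labels say the gene was deleted. That call (log2 change 0.35 ± 0.07, SE, adjusted p = 0.0387 by limma) was lost without sufficient replicate 2 or 3 or deficient replicate 1 or 2, with adjusted p from 0.0751 to 0.182. Sufficient and deficient arrays are therefore the libraries so labelled throughout, and every direction below rests on those labels, and the sources used here do not say which exons were removed. Precision is limited throughout by the number of arrays.

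Among the receptor chains, Il7r was lower in the arrays labelled Gata3-deficient, by 2.11-fold, and it was the only one of the 6 measured chains past the threshold, a share of 16.7% against 2.21% of all genes. Il2ra, Il4ra, Il15ra and Il21r had small positive differences and Il2rb a small negative one, all within a log2 change of 0.20. The direction was the same on every probe set of each of the 5 genes that had several. Values of the groups did not overlap for Il7r, Il2ra and Il4ra, which makes 3 of 6 chains, against 19.8% of all genes. At an unadjusted p under 0.05 there were 2 of 6, Il7r and Il2ra, where 14.4% of all genes had one. Of the 12 probe sets, 5 had groups that did not overlap, beside 18.9% of all probe sets with 1 gene.

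**Figure D1:**
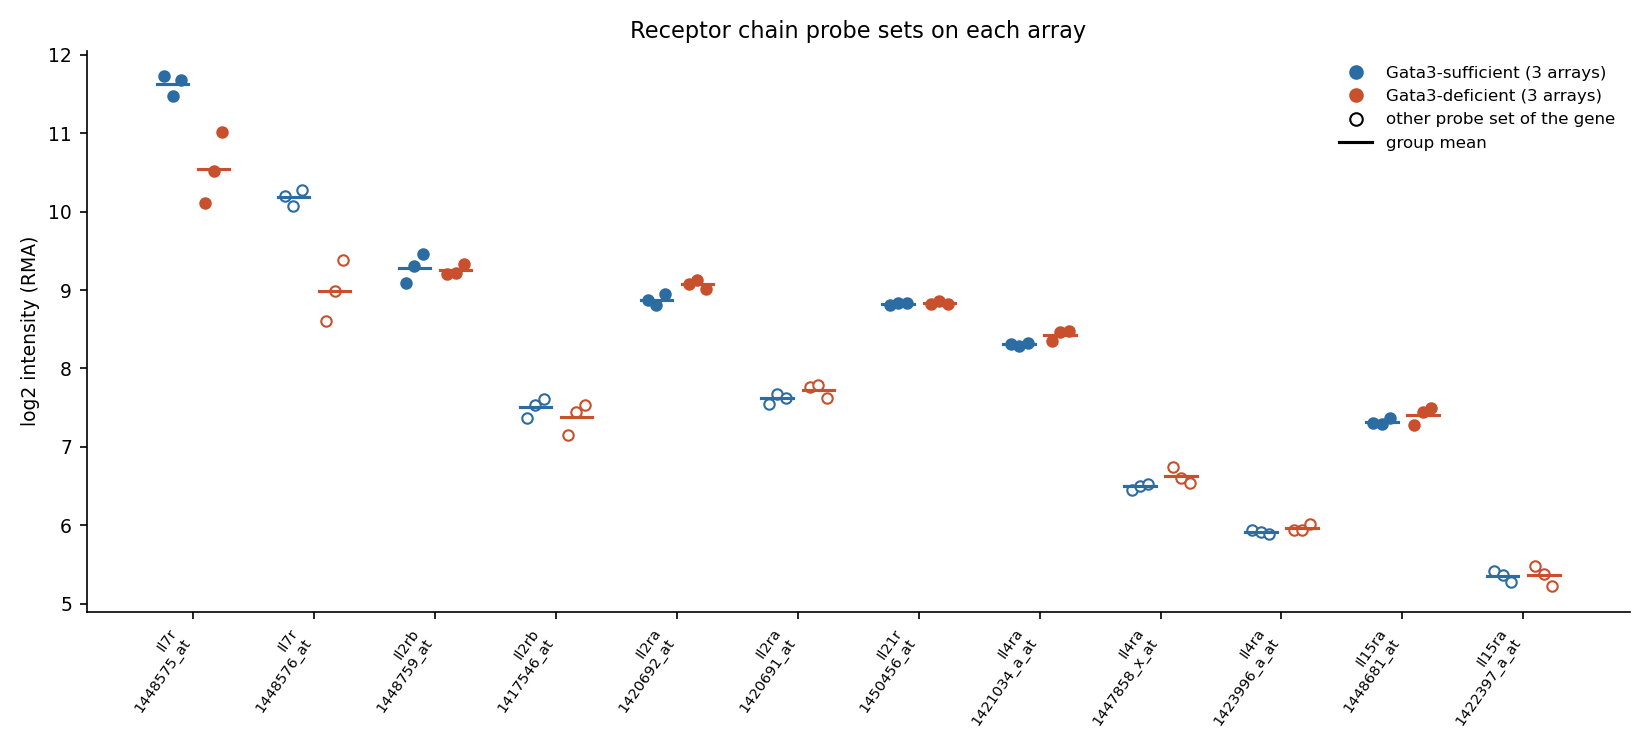
Log2 intensity (RMA) of the 12 receptor chain probe sets on each of the 6 arrays, replicates 1, 2 and 3 from left to right within a group, with a line at the group mean; filled points mark the probe set that stands for its gene. The Il7r values of the deficient arrays (10.11 to 11.01 on the brighter probe set) lie below those of the sufficient arrays (11.48 to 11.73), while the groups of the other chains lie close together.

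Il7r encodes the alpha chain that binds interleukin 7, a survival cytokine of resting T cells, and that also joins Crlf2 to bind the cytokine TSLP. On the brighter Il7r probe set (1448575_at) the sufficient arrays read 11.73, 11.48 and 11.67 and the deficient arrays 10.11, 10.52 and 11.01. The deficient arrays were all lower and were also further apart, with group means of 11.62 ± 0.13 and 10.55 ± 0.45 (SD, n = 3 each). The log2 change was -1.08 ± 0.18 (SE, 95% interval -1.48 to -0.68, adjusted p = 0.0184 by limma). In size it exceeded the changes of 99.9% of the genes.

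The other Il7r probe set (1448576_at) showed the same order of the deficient arrays. It read 10.20, 10.08 and 10.28 in the sufficient and 8.60, 8.99 and 9.38 in the deficient arrays. Its log2 change was -1.19 ± 0.15 (SE, adjusted p = 0.00698 by limma over all 20393 probe sets with 1 gene, of which 1.69% passed). The Il7r probe sets differed from each other by 1.40 to 1.63 on every array, so they carried the difference between the groups alike. Several probe sets of a gene read the same RNA and are not further replicates.

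Deficient replicate 1 had the lowest Il7r and replicate 3 the highest. Relative to the mean of the sufficient arrays, Il7r on the brighter probe set was 2.86-fold lower in deficient replicate 1, 2.15-fold lower in replicate 2 and 1.53-fold lower in replicate 3. Without deficient replicate 1 the log2 change was -0.86 (adjusted p = 0.0216 by limma) and without deficient replicate 3 it was -1.31 (0.00173). Il7r no longer passed when sufficient replicate 2 (-1.15, adjusted p = 0.0682), sufficient replicate 3 (-1.06, 0.0595) or deficient replicate 2 (-1.06, 0.0804) was left out, nor without limma's intensity trend (adjusted p = 0.0954) or with robust variance estimation (0.13). The direction was negative in each of these fits.

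Markers of other blood cells varied between the same deficient arrays. The mean log2 level of 7 neutrophil markers was 4.66 to 4.81 in the sufficient arrays and 4.82, 5.14 and 5.55 in deficient replicates 1, 2 and 3, with 5 of the 7 dim (mean below the 40th percentile of probe sets, 5.25). Among them S100a9, a calcium-binding protein of neutrophils, read 4.44 to 5.02 in the sufficient and 5.10, 5.83 and 6.59 in the deficient arrays, a log2 difference of 1.10 that did not pass (adjusted p = 0.113 by limma). That of 9 myeloid markers was 5.05 to 5.28 in the sufficient arrays and 5.25, 5.45 and 5.54 in the deficient ones, with 4 dim. Lyz2, a lysozyme of macrophages and neutrophils, read 5.79 to 6.54 against 6.55, 7.44 and 7.60, a log2 difference of 1.02 that did not pass either (adjusted p = 0.0849 by limma). In size both are near the Il7r change, and in both genes the groups did not overlap. They had the largest differences of their lists, whose medians were 0.27 for the neutrophil and 0.11 for the myeloid markers. All 7 neutrophil and 7 of the 9 myeloid markers had a positive difference, as had 6570 of all 12394 genes. Ngp and S100a8 of the neutrophil list differed by 0.74 and 0.64, none past the threshold. Tyrobp, Csf1r and Fcer1g of the myeloid list differed by 0.48, 0.33 and 0.31, also without passing. At the other end, Mpo of the neutrophil list differed by 0.04, and Itgam, Flt3, Cd68 and Cd14 of the myeloid list by -0.10 to 0.03. The array with the lowest Il7r was the deficient array with the least of both lists.

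For 5 markers of NK or CD8 T cells the mean level was 5.50 to 5.65 in the sufficient and 5.33, 5.46 and 5.55 in the deficient arrays. Klrd1, an NK cell receptor, read 6.79 to 7.23 in the sufficient and 5.64, 6.53 and 6.66 in the deficient arrays (log2 difference -0.71, adjusted p = 0.177 by limma), while Ncr1, Cd8a, Cd8b1 and Eomes differed by -0.10 to 0.08 and the list's median difference was 0.02. For 7 B cell markers, 4 of them dim, the mean level was 5.23 to 5.32 against 5.28 to 5.44. Cd22, an inhibitory receptor of B cells, was the only marker in these 4 lists past the threshold. It read 7.21, 6.90 and 6.82 in the sufficient and 7.99, 8.31 and 8.08 in the deficient arrays, a rise of 1.15 ± 0.11 (SE, adjusted p = 0.00152 by limma) that passed in all 9 alternative fits and with any single array left out. Of the 7 B cell markers 4 had a positive and 3 a negative difference, and the list's median difference was 0.0031. Cd79b was also higher, by 0.23 (adjusted p = 0.258 by limma), while Ms4a1 and Cd79a differed by -0.40 and -0.20 (0.412 and 0.688). What part these cells have in the receptor levels was not tested. In sorted bulk cells, fewer cells of a type and less RNA per cell cannot be told apart.

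The DNA before the Il7r start is shown because Il7r is the chain that changed, and that before Il2ra because it is the chain with the next smallest p and the opposite sign. Both come from RefSeq's GRCm38.p6 assembly, read on the strand of the gene and ending at the outermost annotated start. Il7r lies on the minus strand at chr15:9529942-9530126 and Il2ra on the plus strand at chr2:11642542-11642791, and capitals mark matches to the motifs named after them.
Il7r upstream: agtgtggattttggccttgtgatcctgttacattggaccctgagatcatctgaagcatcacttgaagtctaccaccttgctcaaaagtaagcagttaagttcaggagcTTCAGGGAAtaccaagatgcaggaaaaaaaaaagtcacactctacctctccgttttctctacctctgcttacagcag
Il2ra upstream: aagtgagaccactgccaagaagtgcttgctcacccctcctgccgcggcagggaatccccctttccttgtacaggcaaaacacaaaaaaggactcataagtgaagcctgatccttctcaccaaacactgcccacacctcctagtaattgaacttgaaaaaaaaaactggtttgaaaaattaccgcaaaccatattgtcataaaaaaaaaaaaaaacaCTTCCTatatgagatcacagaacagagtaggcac
Il7r ETS match: ttgctcagaCTTCCTgtttctggc

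Each promoter window in the RefSeq table spans 250 bases before to 50 after a listed start, and 4 motifs were searched on both strands. The GATA motif was searched as AGATAA, also with T as its first letter, with G as its last, or with both changes. The ETS motif was AGGAAG. For FOXO factors the letters were GTAAACA, and for STAT factors TTCNNNGAA. The Il7r window held 1 STAT match beginning 142 bases before the listed start and 1 ETS match beginning 48 bases before it, which do not overlap. The ETS match is the short line above, at chr15:9529910-9529933 on the minus strand. For Il7r the listed start is not the outermost annotated start, chr15:9529941, before which the printed upstream line ends, but lies further inside the gene. The distances therefore do not count from the end of that line, and the ETS match lies after it, within the annotated gene. The Il2ra window held 1 ETS match, 34 bases before the start. The table's 7 windows for these chains are 2 of Il15ra and 1 each of Il2ra, Il2rg, Il4ra, Il7r and Il21r, while Il2rb has no entry. An ETS match lay in 5 of the 7 windows, all but that of Il21r and 1 of Il15ra, and GATA, FOXO and STAT matched 1 each, the first pair in the Il21r window. In all 32851 promoter windows the shares with a match were 35.4% for ETS, 29.8% for GATA, 3.65% for FOXO and 8.30% for STAT. A match is a stretch of letters and not a shown binding site.

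Il2ra encodes CD25, the alpha chain of the interleukin 2 receptor and the marker used in the sort. Its brighter probe set (1420692_at) read 8.87, 8.81 and 8.95 in the sufficient and 9.08, 9.13 and 9.01 in the deficient arrays. All deficient arrays lay above all sufficient ones, by a 1.15-fold difference of means. The log2 change of 0.20 ± 0.06 (SE, 95% interval 0.07 to 0.32) did not pass over all genes (adjusted p = 0.121 by limma), nor in any alternative fit, where its adjusted p ran from 0.057 to 0.387. The other Il2ra probe set (1420691_at) had a log2 difference of 0.11 ± 0.07 (SE, adjusted p = 0.564), and its groups overlapped.

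Il2rb encodes the beta chain that signals for interleukin 2 and interleukin 15. It read 9.09, 9.30 and 9.46 in the sufficient and 9.21, 9.22 and 9.33 in the deficient arrays, and the deficient values fell within the sufficient range. The log2 difference was -0.03 ± 0.09 (SE, 95% interval -0.22 to 0.16, adjusted p = 0.915 by limma), and without sufficient replicate 3 it was 0.06. The dimmer Il2rb probe set (1417546_at) differed by -0.13 ± 0.11 (SE).

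Il15ra encodes the high-affinity chain for interleukin 15, which can also present that cytokine to neighbouring cells. It read 7.30, 7.29 and 7.37 in the sufficient and 7.28, 7.44 and 7.50 in the deficient arrays, with overlapping groups. The log2 difference was 0.09 ± 0.07 (SE, 95% interval -0.08 to 0.25, adjusted p = 0.672 by limma). The other Il15ra probe set (1422397_a_at), at a mean of 5.36, differed by 0.01 ± 0.10 (SE). In the RefSeq gene table Il15ra is the protein-coding gene next to Il2ra.

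Il4ra encodes the chain that binds interleukin 4 and, with Il13ra1, interleukin 13. It read 8.31, 8.29 and 8.33 in the sufficient and 8.35, 8.46 and 8.48 in the deficient arrays. The deficient arrays were all higher, but by a log2 difference of only 0.12 ± 0.06 (SE, 95% interval -0.0046 to 0.25), which did not pass (adjusted p = 0.37 by limma). The other Il4ra probe sets differed by 0.13 ± 0.08 (1447858_x_at) and 0.05 ± 0.08 (1423996_a_at). All 3 Il4ra probe sets have suffixes (_a_at or _x_at) that mark probes shared between transcripts, so the gene had no value in the fit without such probe sets.

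Il21r encodes the receptor of interleukin 21, a cytokine of follicular helper T cells, and is the protein-coding gene next to Il4ra in the RefSeq table. It had the narrowest spread of the 6 chains. Its single probe set read 8.80, 8.83 and 8.83 in the sufficient and 8.82, 8.86 and 8.82 in the deficient arrays. The log2 difference was 0.01 ± 0.05 (SE, 95% interval -0.09 to 0.12, adjusted p = 0.939 by limma), and it was -0.00074 without deficient replicate 2.

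**Figure D2:**
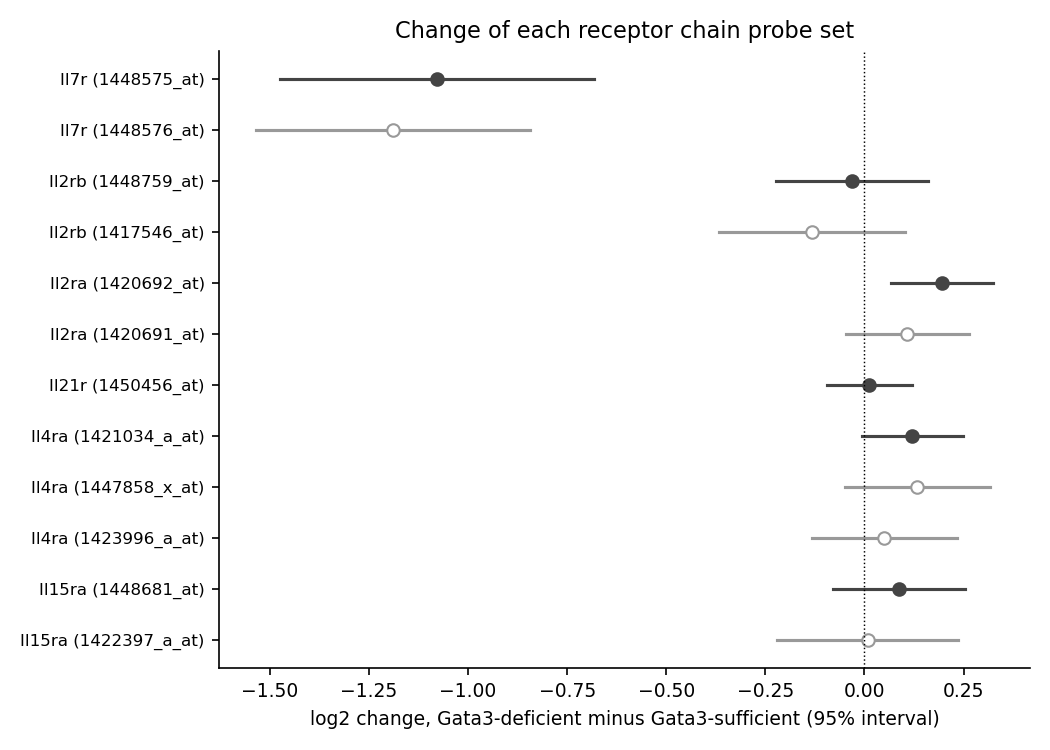
Log2 change (Gata3-deficient minus Gata3-sufficient, x axis) of each of the 12 probe sets, with limma's 95% interval; filled points mark the probe set that stands for its gene. Both Il7r probe sets lie at or below -1.08, and those of the other chains lie between -0.13 and 0.20.

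Within an array, Il7r lay closer to each of the other chains in the deficient arrays. Il7r minus Il2ra was 2.85, 2.67 and 2.72 in the sufficient and 1.03, 1.39 and 2.0002 in the deficient arrays, so this log2 difference was narrower by 1.27 on average in the deficient arrays. Against Il2rb, Il4ra, Il15ra and Il21r the gap changed by -1.05, -1.20, -1.17 and -1.09. In none of the 5 pairs did the groups overlap. Each pair had an exact two-sided permutation p of 0.1 (adjusted p = 0.1 over the 5 pairs), the smallest that 3 arrays against 3 can give, so no pair could pass 0.05. Such a gap shows unequal change and not which of the genes changed.

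Ranked by intensity, the chains kept the same order in both groups: Il7r, Il2rb, Il2ra, Il21r, Il4ra and Il15ra. This is an order of probe set brightness and not of transcript amount, since probe sets differ in how well they bind. Il7r stood 2.34 above Il2rb in the sufficient arrays and 1.29 above it in the deficient arrays on the log2 scale. Il2ra and Il21r overlapped in the sufficient arrays, at 8.81 to 8.95 and 8.80 to 8.83. In the deficient arrays no neighbours in the order overlapped, and Il2ra, at 9.01 to 9.13, lay nearest to Il2rb, at 9.21 to 9.33. All 6 chains lay above the 40th percentile of probe sets.

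The genes whose profile over the 6 arrays was nearest to that of Il7r were Sox4, Ifng and Satb1. Likeness was the root mean square distance between log2 values centred on each gene's own mean, and it was 0.21 for Sox4, 0.24 for Ifng and 0.25 for Satb1. Sox4 encodes a transcription factor of lymphocyte development, and it read 7.77, 7.76 and 7.57 in the sufficient and 6.52, 6.68 and 6.83 in the deficient arrays. Of its 6 probe sets, the brightest had a log2 change of -1.02 ± 0.09 (SE) and the others -0.63 to -0.07. Ifng, the interferon gamma gene, read 7.85, 7.81 and 7.54 against 6.40, 7.02 and 6.84, and Satb1, which organises chromatin in developing and naive T cells, 11.08, 11.05 and 10.90 against 9.97, 10.13 and 10.16. These genes were picked by this distance over the same arrays, so their likeness to Il7r follows from the choice. In all of these genes deficient replicate 1 was the lowest array, as for Il7r, but the deficient arrays lay closer together for Sox4 and Satb1 than for Il7r.

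**Figure D3:**
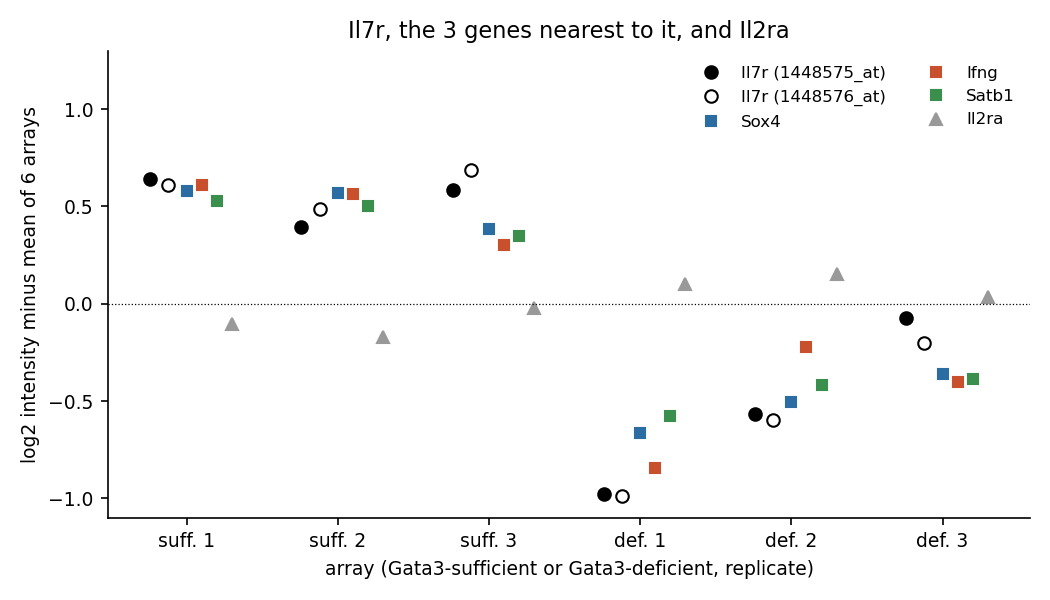
Log2 intensity minus the gene's mean of the 6 arrays (y axis) on each array (x axis) for both Il7r probe sets, for Sox4, Ifng and Satb1, and for Il2ra. Il7r and the genes picked as nearest to it over these arrays are high on all sufficient and low on all deficient arrays. Deficient replicate 1 is lowest in each of them, while Il2ra runs the other way within a narrow range.

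The genes around these receptors were read from lists of ligands, partner chains, kinases, inhibitors, targets and regulators. These lists were chosen with earlier results of these data known. Their counts and signs beside those of all genes are therefore description and not a test. Of 72 listed genes 66 were measured, and 6 were higher and 3 lower past the threshold, with a median log2 change of 0.00 over the lists against 0.01 over all genes. In all genes 1.44% were higher and 0.766% lower. The members that rose were Socs2, Ptpn11, Gzmb, Lta, Tnfrsf4 and Myb, and those that fell were Jak1, Satb1 and Bach2. Without sufficient replicate 2, deficient replicate 2 or deficient replicate 3 the number past the threshold was 3, 3 and 4, and without the intensity trend it was 2.

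None of the 8 measured ligand genes passed (limma). At an unadjusted p under 0.05, 2 were higher, where 14.4% of all genes had one in either direction. Il2, the gene of interleukin 2, read 5.29, 5.18 and 5.46 in the sufficient and 5.70, 6.04 and 5.66 in the deficient arrays, a log2 difference of 0.50 ± 0.12 (SE, adjusted p = 0.0818 by limma). It passed with array quality weights (adjusted p = 0.0297). Il21 had a difference of 0.29 ± 0.11 (adjusted p = 0.248), and 5 of the 8 ligands were dim, among them Il7 and Il15 at means of 3.92 and 3.76. Il7 and Il15 are known as products mainly of other cell types.

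Of the other chains of the family, Crlf2, Il13ra1 and Il9r, none passed (limma). At an unadjusted p under 0.05, 1 of the 3 was higher, where 14.4% of all genes had one in either direction. Crlf2, which shares Il7r to form the TSLP receptor, read 10.18, 9.86 and 10.06 in the sufficient and 10.43, 10.16 and 10.22 in the deficient arrays. Its groups overlapped, and its log2 difference of 0.24 ± 0.09 (SE, adjusted p = 0.248) had the opposite sign to that of Il7r. With the replicate number as a block Crlf2 passed (adjusted p = 0.0366). Il13ra1 (mean 4.41) and Il9r (mean 3.66) were dim.

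Among kinases and STATs, Jak1 fell, and it was 1 of 8 measured genes to pass (12.5%, against 2.21% of all genes). Jak1, the kinase bound to the signalling chains other than the gamma chain, read 11.44, 11.50 and 11.49 in the sufficient and 11.29, 11.27 and 11.15 in the deficient arrays. The groups did not overlap, and the log2 change was -0.24 ± 0.05 (SE, adjusted p = 0.033 by limma). Its other probe sets differed by -0.17 and -0.25 without passing. The Jak1 call was lost without sufficient replicate 2 or 3 or deficient replicate 2 or 3 (log2 change -0.26 to -0.20, adjusted p from 0.0813 to 0.159). Jak3, the kinase of the gamma chain, differed by 0.07 ± 0.09, Stat5a by 0.08 ± 0.07, Stat5b by -0.02 ± 0.07, and Stat6, the STAT of interleukin 4 signalling, by -0.16 ± 0.06 (adjusted p = 0.202), none past the threshold. Of 10 adaptor and PI3 kinase genes none passed (limma). At an unadjusted p under 0.05, 1 was higher, where 14.4% of all genes had one in either direction. Akt1 (0.23, adjusted p = 0.193) and Irs2 (-0.18, 0.36) had the smallest p.

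The list called feedback inhibitors, which also holds phosphatases such as Ptpn11, gave 2 genes past the threshold of 9 measured. Both were higher (22.2%, against 2.21% of all genes). Socs2, a suppressor of cytokine signalling induced through STAT5, read 9.75, 9.55 and 9.74 in the sufficient and 10.53, 10.21 and 10.26 in the deficient arrays. That was a log2 change of 0.65 ± 0.09 (SE, adjusted p = 0.00643 by limma), with its other probe set at 0.69, and it passed with any single array removed (6 of 6 fits), though not without the intensity trend (adjusted p = 0.0563). Ptpn11, the phosphatase SHP-2, rose by 0.32 ± 0.06 (adjusted p = 0.0377) but passed in 1 of those 6 fits, the one without sufficient replicate 1 (adjusted p up to 0.142 in the other ones). Its other probe sets differed by 0.40 (adjusted p = 0.124 by limma) and, on a dim one, by -0.02. Cish, another inhibitor induced through STAT5, read 9.67, 9.69 and 9.91 against 9.996, 10.04 and 10.14, a difference of 0.30 ± 0.07 (adjusted p = 0.0585). Cish passed without sufficient replicate 3 (adjusted p = 0.0189), with the replicate number as a block (0.0148), after renewed quantile normalization (0.0479) and with array quality weights (0.0153). Cbl, a ubiquitin ligase, differed by -0.16 (adjusted p = 0.188).

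Of 13 measured STAT5 targets 3 rose and none fell (23.1%, against 2.21% of all genes), with a median log2 change of 0.08. Gzmb, the granzyme B gene, rose by 1.45 ± 0.11 (SE, adjusted p = 0.00037 by limma). Lta, the lymphotoxin alpha gene, read 8.43, 8.41 and 8.39 in the sufficient and 8.87, 8.81 and 8.70 in the deficient arrays (0.38 ± 0.06, adjusted p = 0.0116). Tnfrsf4, the receptor OX40, rose by 0.32 ± 0.05 (adjusted p = 0.0186). Gzmb passed with any single array removed (6 of 6 fits). The Lta call was lost with sufficient replicate 2 (0.38, adjusted p = 0.0644) or deficient replicate 2 (0.37, 0.0651) left out, and that of Tnfrsf4 without these (0.26, 0.0621; 0.33, 0.0838) or deficient replicate 3 (0.34, 0.0525). Myc (0.29, adjusted p = 0.184) and Bcl2 (0.22, 0.23), a survival gene of the interleukin 2 and interleukin 7 response, did not pass.

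The list of Il7r and resting-cell regulators had 11 of 13 measured members with a negative difference and a median of -0.17, where 5824 of all 12394 genes had a negative one and the median was 0.0078. Satb1 (-0.92 ± 0.06, SE, adjusted p = 0.00037 by limma) and Bach2, a repressor of effector differentiation (-0.36 ± 0.06, 0.0184), fell. Myb, a transcription factor of dividing lymphocyte precursors, rose on all 3 of its probe sets (0.43 ± 0.07 on the brightest, 0.0203). Satb1 passed with any single array removed (6 of 6 fits), whereas the calls of Bach2 and Myb were lost when the fit left out sufficient replicate 2 (adjusted p = 0.0935 and 0.0547), deficient replicate 2 (0.057 and 0.0909) or deficient replicate 3 (0.0545 and 0.0655). Foxo1, a direct activator of Il7r, read 10.71, 10.66 and 10.70 in the sufficient and 10.56, 10.57 and 10.49 in the deficient arrays. The groups did not overlap, but the log2 difference of -0.15 ± 0.04 did not pass (adjusted p = 0.106). Foxp1, which can compete with Foxo1 at Il7r, differed by -0.18 ± 0.05 (adjusted p = 0.126). Of the resting-cell homing genes S1pr1 and Ccr7 neither passed (limma), at -0.25 (adjusted p = 0.0987) and 0.24 (0.334), both with an unadjusted p under 0.05. In all genes 14.4% had such a p.

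**Figure D4:**
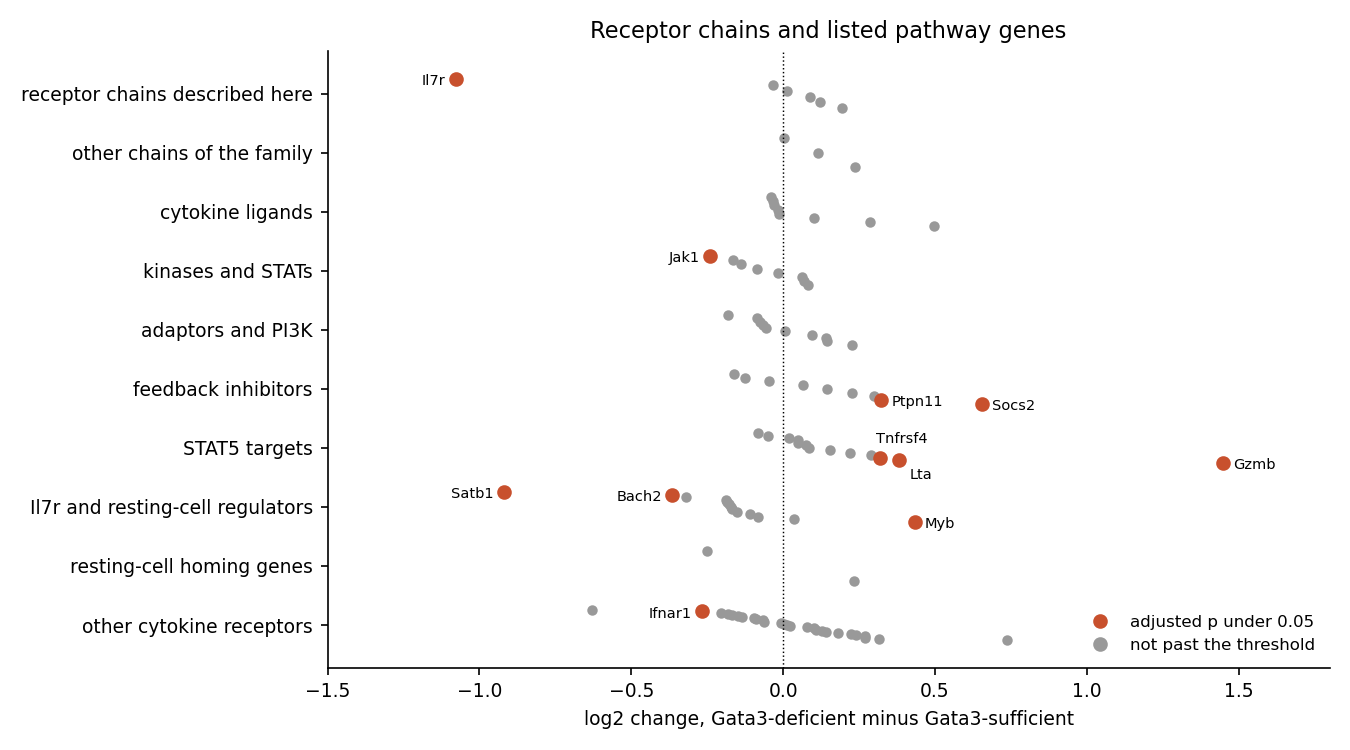
Log2 change (Gata3-deficient minus Gata3-sufficient, x axis) of every measured gene in each list (y axis), 1 point a gene; genes with an adjusted p under 0.05 by limma are named. Il7r has the largest decrease among the plotted genes and Gzmb the largest increase.

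Cytokine receptor genes outside the family were compared as a background of like genes. Of 27 measured, 1 fell and none rose past the threshold (3.70%, against 2.21% of all genes), with a median log2 change of 0.01. Ifnar1, a chain of the type I interferon receptor, fell by 0.27 on the log2 scale (adjusted p = 0.0398 by limma), and did not pass in any of the 6 fits with 1 array left out (adjusted p from 0.0697 to 0.168). Larger differences that did not pass were those of Il1r2, the decoy receptor of interleukin 1 (0.74 ± 0.16, adjusted p = 0.0525), and Il17rb, a chain of the interleukin 25 receptor (-0.63 ± 0.14, 0.0587). Il7r had a larger difference in size than any of these 27 genes. That the family differs from other receptors was not tested.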

How the data were processed

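For each sample, biotin-labelled cRNA was prepared from 6 ug of Trizol-extracted RNA and put on Affymetrix arrays, per the labels' protocols. The authors deposited log2 intensities. Per the submitters' processing notes these were made by RMA, of unstated version, which corrects background, quantile normalizes arrays and summarises probes; the log2 scale was taken from the values. Background and saturation could not be read from this table, and no batch is given in the sources used here. Of 22690 probe sets, 20393 had 1 gene in the platform's annotation (691 several, 1606 not listed). No dim probe set was left out.

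Groups were compared with limma 3.58.1 in R 4.3.3 (lmFit and eBayes with an intensity trend, two-sided, Benjamini-Hochberg over all 12394 genes, threshold 0.05), as deficient minus sufficient. The fit was tested on simulated data. Also tried were a replicate block, no trend, robust variance, dim probe sets left out, renewed quantile normalization, median centring, array weights, other probe set choices and each array left out. Named were the receptor chains, Gata3, Foxp3, list members past the threshold with up to 2 more by p, and the 3 genes nearest to a chain past the threshold; a few further list members and markers were added once their values were known. The receptor chains and lists were chosen with earlier results of these data known. The design text gives 3 mice per group, and no pairing is stated.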

Additional observations from a re-analysis of the deposited data

How the results depend on the processing

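With all 6 arrays, the Il7r log2 change lay between -1.13 and -0.93 and passed in 7 of 9 alternative fits. It did not pass without the intensity trend (-1.08, adjusted p = 0.0954) or with robust variance estimation (-1.08, 0.13), where 0 receptor chains passed. In each of those fits 2 chains had an unadjusted p under 0.05 by limma, beside 1618 and 1784 of all 12394 genes. With 1 array left out, the Il7r change ran from -1.31 to -0.86, and 0 to 1 receptor chains passed. Over the same 6 fits the difference of Il2rb ran from -0.130 to 0.0579 and that of Il21r from -0.00074 to 0.0193, while Il2ra, Il4ra and Il15ra stayed positive and below the threshold. Gata3 ran from 0.28 to 0.42 and was past the threshold in 2 of 6; it did not pass without the trend (0.35, adjusted p = 0.15).

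The count of all genes past the threshold was 54 without the trend and 585 with array quality weights, and 62 to 270 with 1 array left out. Of the pathway genes 2 passed without the trend and 3 to 9 with 1 array left out. Of the other cytokine receptors 0 passed without the trend, where 10 had an unadjusted p under 0.05, beside 1618 of all 12394 genes. With robust variance estimation, with dim probe sets left out, after renewed quantile normalization and after median centring 2 passed. The number was 4 with array quality weights, 5 with the replicate block, and 0 to 3 with 1 array left out. The causes were not tested. For the other named genes and probe sets, 611 of the alternative values kept direction and side of the threshold, 38 lost and 34 gained a call, and 3 small differences turned sign: Stat3 with the mean of its probe sets (0.00595), Hba-a1 without sufficient replicate 1 (0.00588; -0.205 at the lowest with 1 array left out) and Foxp3 without deficient replicate 2 (-0.0225; 0.0961 at the highest).

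Same-numbered arrays shared little: their deviations from the group means correlated at 0.04, -0.02 and 0.07 for replicates 1, 2 and 3, so the number was not taken as a pairing. With the replicate block 368 genes passed, and Il7r kept its change of -1.08 (adjusted p = 0.00576). Il7r minus each other chain, renormalized, kept its sign in all 5 pairs.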
